A study of Mus musculus with 10 samples.

Results

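The genes of the proteasome were compared between livers of mice treated with an ASO, an antisense oligonucleotide that targets miR-122, and livers of saline-treated mice. Members were taken by symbol: every probe annotated to a single gene whose symbol begins with Psm, a letter from a to g and a number, with 1 probe per gene, the one with the highest mean over all arrays. This gave 48 of the 18012 genes measured by such probes. Of these, 46 encode proteasome subunits, activators, regulators or assembly chaperones, and the other two (Psmc3ip and Psme3ip1) only carry a similar symbol. The values that chose the probe are levels over both groups and not differences between them.

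Each of 10 mice gave 1 liver and 1 single-channel CodeLink oligonucleotide array. The 5 ASO mice were male C57Bl/6 animals that received the miR-122 ASO, an RNA oligonucleotide with 2′-O-methoxyethyl and phosphorothioate modifications, intraperitoneally at 50 mg/kg and 2 times a week over 4 weeks. The 5 control mice were injected with saline on that schedule, and both groups were killed 2 days after their final injection. Sex and strain are given in the labels for the ASO mice and not for the saline mice, and the samples used here hold no oligonucleotide of another sequence as a control, so sequence-specific effects and effects of the chemistry cannot be told apart. Hepatocyte markers were bright on every array, with Alb at 9.84 ± 0.59 in saline and 10.40 ± 0.21 in ASO livers (log2 intensity, SD, n = 5 per group) and lowest on saline replicate 1. In bulk liver RNA, fewer cells of a type and less RNA per cell cannot be told apart.

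The proteasome degrades proteins that carry ubiquitin chains. Its 20S core is a barrel of alpha rings, which gate the entrance, and beta rings, which hold the proteolytic sites in Psmb5, Psmb6 and Psmb7. The 19S cap has a base of ATPases (Psmc genes) that unfold substrates and a lid that removes ubiquitin. In cells exposed to interferon, Psmb8, Psmb9 and Psmb10 replace the constitutive catalytic subunits to form the immunoproteasome, which favours peptides for MHC class I. The hepatocyte is a cell with high protein turnover, and the transcription factor Nfe2l1 is known to raise the subunit genes together when proteasome activity is short.

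Promoter windows in RefSeq (build GRCm38.p6, 250 bases before to 50 after a gene's start) were found for 38 of the 46 genes, 41 windows in all, and were searched on both strands for 4 short motifs. The antioxidant response element core TGACNNNGC, the kind of site through which Nfe2l1 acts, occurred in 5 of the 41 windows (12.2%), against 12.4% of all 32851 windows. The CCAAT box occurred in 14 (34.1%, against 37.4%), the gamma-activated site core TTCNNNGAA in 3 (7.32%, against 8.30%) and the interferon-stimulated response element core (a pair of GAAA blocks with any 2 bases between them) in 5 (12.2%, against 3.44%). Matches of different motifs may overlap, and each motif was counted by itself. The TGACNNNGC core occurred in the windows of Psmb5, Psmb6, Psmc6, Psmd9 and Psmd12, and the TTCNNNGAA core in those of Psmb8, Psmd2 and Psmg1. The interferon-stimulated core occurred in those of Psmb3, Psmd4, Psmd9, Psme1 and Psmg4. The stretches below are examples from the matches that lie before the start of a gene whose values are given in full, and other matches, such as that of Psmd12, do so too. They belong to the catalytic gene Psmb5, its immunoproteasome counterpart Psmb8 and the core gene Psmb3. They are read 5′ to 3′ on the gene's strand, with the motif (for Psmb3 its reverse complement) in capitals.
Psmb5: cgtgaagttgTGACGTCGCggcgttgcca
Psmb8: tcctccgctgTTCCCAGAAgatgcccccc
Psmb3: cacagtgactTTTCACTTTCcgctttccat
They lie at chr14:54618024-54618052 (minus strand), chr17:34198088-34198116 (plus strand) and chr11:97703261-97703290 (plus strand), in that order. Counted from the gene's start, the motif spans bases -47 to -39 in Psmb5, -97 to -89 in Psmb8 and -163 to -154 in Psmb3. A match describes the letters of a window and is not evidence of binding.

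No proteasome gene differed detectably between ASO and saline livers after adjustment for all probes tested. None of the 46 passed an adjusted p of 0.05 in limma, where 16 of all 18012 genes did (0.0888%). On the 1 probe used per gene, the lowest adjusted p among members was 0.383, for Psmd7. At an unadjusted p under 0.05 there were 2 genes, Psmd7 and Psmd2, both with lower values in ASO livers. That is 2 of 46, against 12.5% of all genes at that threshold, 8.26% lower and 4.21% higher in ASO livers. In none of the 46 genes were the groups free of overlap, a pattern seen for 1.72% of all genes with lower and 0.960% with higher values in ASO livers (2.43% and 1.03% of genes above the median level, of which 14.9% had an unadjusted p under 0.05, 11.3% lower and 3.53% higher, and 0.119% passed after adjustment).

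The interval of a difference shows how precisely it was measured, for each gene by itself, without adjustment and for the values as deposited. The 95% interval of the log2 difference, ASO minus saline, lay within 2-fold in both directions for 40 of the 46 genes (87.0%) and within 1.5-fold for 12 of them (26.1%). Over all genes the shares were 71.3% and 18.6%, and over genes above the median level 70.9% and 20.2%. The 6 genes whose interval reached past 2-fold were Psmc2, Psmc3, Psmd2, Psmd7, Psmd8 and Psme1, and in each it did so on the side of lower values in ASO livers. The standard error of a difference had a median of 0.25 over the 46 genes.

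**Figure D1:**
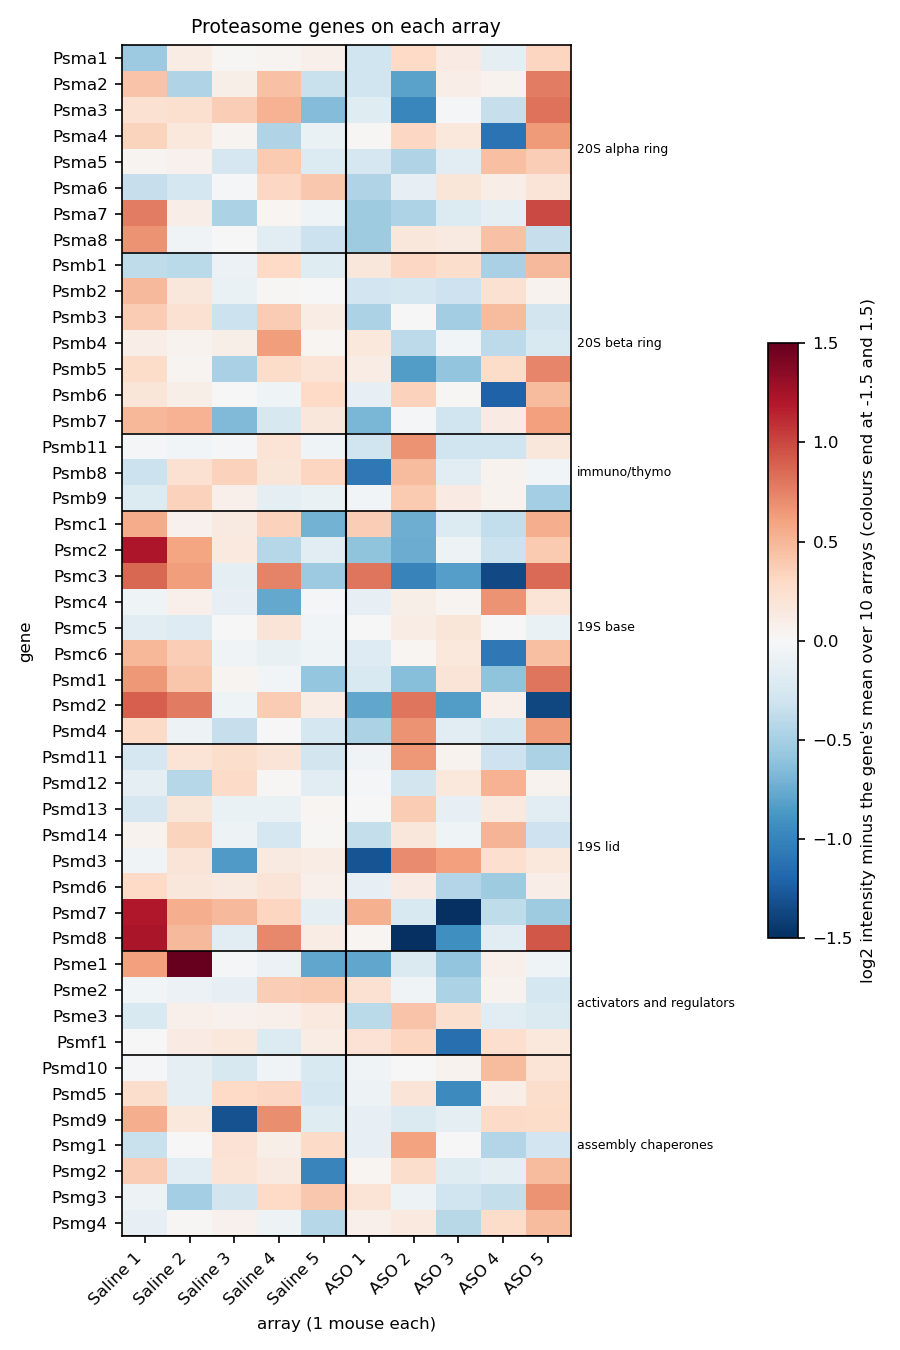
Log2 intensity of each of the 46 proteasome genes on each of the 10 arrays, as the deviation from the gene's own mean over arrays, with saline arrays left of the vertical line, ASO arrays right of it, and classes separated by horizontal lines. Both sides mix higher and lower values in every class, and ASO replicate 5 stands high in the core rings (medians of 0.51 in the alpha and 0.47 in the beta ring).

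As deposited, 31 of the 46 genes had a lower mean and 15 a higher mean in ASO livers, with a median log2 difference of -0.07. Over all 18012 genes 54.9% were lower with a median of -0.04, and over the 10945 genes with a mean above the median of all probes, where 44 of the 46 lie, 62.6% were lower with a median of -0.11. The direction depended on scaling: after quantile normalization 20 were lower and 26 higher with a median of 0.02, and after cyclic loess 24 were lower and 22 higher with a median of -0.03. No direction can be given for the proteasome genes as a group. Differences larger than their own standard error were found for 16 of the 46 genes, 12 lower and 4 higher. The same held for 8542 of the 18012 genes, 4998 lower and 3544 higher. Among the 10945 genes above the median level it held for 5497, 3807 lower and 1690 higher.

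**Figure D2:**
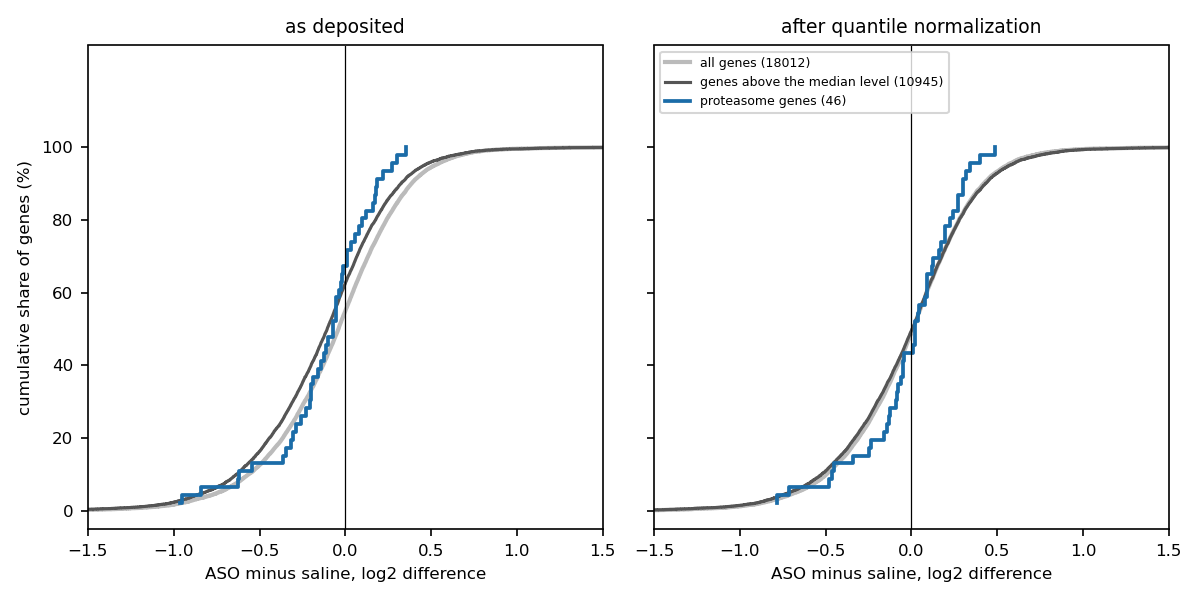
Cumulative share of genes (vertical axis, in percent) by log2 difference, ASO minus saline (horizontal axis), for the 46 proteasome genes, all 18012 genes and the 10945 genes above the median level, as deposited (left) and after quantile normalization (right). The proteasome curve crosses 0 at 67.4% as deposited and at 43.5% after quantile normalization, against 54.9% and 49.0% for all genes.

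**Figure D3:**
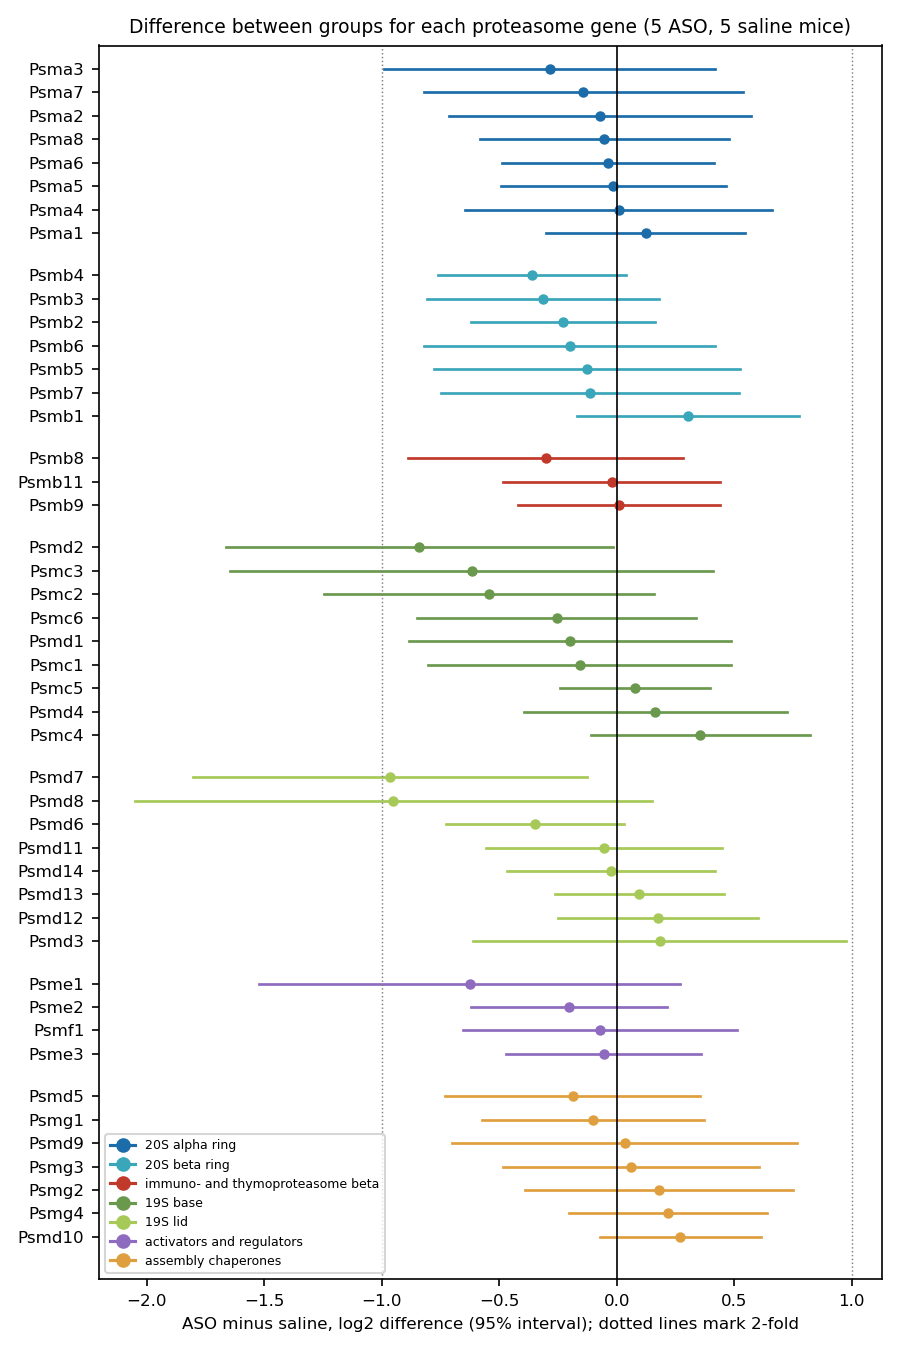
Log2 difference, ASO minus saline, with its 95% interval for each of the 46 genes, grouped and coloured by class, from 5 mice per group. The intervals of Psmd7 (-1.80 to -0.13) and Psmd2 (-1.66 to -0.02) lie below 0 without adjustment for the number of genes tested, and the other 44 include 0.

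The alpha subunits form the outer rings of the core and its gate. Of 8 measured, 6 had lower and 2 higher means in ASO livers, with a median log2 difference of -0.05 (0.07 after quantile normalization and 0.04 after cyclic loess), and 0 had an unadjusted p under 0.05. Psma3 read 8.01, 8.03, 8.15, 8.31 and 7.14 on the saline arrays and 7.61, 6.81, 7.75, 7.45 and 8.60 on the ASO arrays (log2 intensity, replicates 1 to 5). Saline replicate 5 and ASO replicate 2 were the low arrays and ASO replicate 5 was above every saline array, so the groups overlapped throughout. The log2 difference of Psma3, whose N-terminal tail helps close the gate, was -0.29 ± 0.32 (SE, limma unadjusted p = 0.392), and -0.08 without ASO replicate 2. Psma1 read 7.06, 7.73, 7.63, 7.65 and 7.68 on the saline arrays and 7.32, 7.91, 7.74, 7.47 and 7.93 on the ASO arrays. Saline replicate 1 was the lowest of all 10 arrays for Psma1, and the difference of 0.12 ± 0.19 was 0.00 without it.

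Psma7 read 6.13, 5.47, 4.89, 5.39 and 5.30 on the saline arrays and 4.84, 4.90, 5.16, 5.22 and 6.35 on the ASO arrays. ASO replicate 5 was far above the other ASO arrays for Psma7, with the highest value of all, and saline replicate 1 was next to it. The difference was -0.14 ± 0.31, and -0.41 without ASO replicate 5. Psma2 read 6.54, 5.67, 6.20, 6.56 and 5.78 on the saline arrays and 5.82, 5.31, 6.21, 6.17 and 6.88 on the ASO arrays. The lowest and the highest value of Psma2 were both in the ASO group, and the difference was -0.07 ± 0.29. Psma4, Psma5 and Psma6 had differences of 0.01, -0.02 and -0.04. Psma8, an alpha subunit of germ cells, was dim in liver, with values of -0.10 to 1.10 over the 10 arrays, and had a difference of -0.05 ± 0.24.

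The beta subunits form the inner rings. Of the 7 constitutive genes 6 had lower and 1 a higher mean in ASO livers, with a median log2 difference of -0.20 (-0.05 after quantile normalization and -0.11 after cyclic loess), and 0 had an unadjusted p under 0.05. Psmb4 read 7.43, 7.38, 7.41, 7.95 and 7.36 on the saline arrays and 7.48, 6.93, 7.29, 6.93 and 7.09 on the ASO arrays. Saline replicate 4 was above all other arrays for Psmb4, a non-catalytic subunit, whose other saline values lay between 7.36 and 7.43. Its difference was -0.36 ± 0.18 (unadjusted p = 0.072, adjusted p = 0.487 in limma), and -0.25 without saline replicate 4. Psmb1 read 7.78, 7.75, 8.07, 8.46 and 7.98 on the saline arrays and 8.33, 8.47, 8.42, 7.68 and 8.65 on the ASO arrays. Psmb1, another non-catalytic subunit, was the beta gene with a higher mean in ASO livers, at 0.30 ± 0.22, and ASO replicate 4, the lowest of all arrays, went against that (0.46 without it).

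Psmb3 read 6.28, 6.12, 5.58, 6.28 and 6.00 on the saline arrays and 5.42, 5.90, 5.38, 6.37 and 5.62 on the ASO arrays. Psmb2 read 6.44, 6.13, 5.86, 5.98 and 5.95 on the saline arrays and 5.68, 5.69, 5.65, 6.18 and 6.02 on the ASO arrays. In both of these structural subunits ASO replicate 4 lay within or above the saline range, while ASO replicates 1 and 3 were below all saline arrays. The differences were -0.31 ± 0.23 for Psmb3 and -0.23 ± 0.18 for Psmb2, and neither passed (limma unadjusted p = 0.191 and 0.224).

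Constitutive catalytic subunits and the immunoproteasome subunits that replace them did not separate the groups. Psmb5 read 6.74, 6.50, 5.96, 6.74 and 6.66 on the saline arrays and 6.57, 5.62, 5.86, 6.73 and 7.19 on the ASO arrays. Psmb5 carries the chymotrypsin-like site, and its ASO values lay on both sides of the saline range. Psmb8 read 5.04, 5.59, 5.71, 5.54 and 5.69 on the saline arrays and 4.29, 5.84, 5.20, 5.42 and 5.32 on the ASO arrays. Psmb8 takes the place of Psmb5 in the immunoproteasome, and ASO replicate 1 was far below the other arrays while ASO replicate 2 was the highest. The differences were -0.13 ± 0.30 for Psmb5 and -0.30 ± 0.27 for Psmb8 (limma unadjusted p = 0.678 and 0.28), and that of Psmb8 was -0.07 without ASO replicate 1.

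Psmb6 read 6.76, 6.66, 6.57, 6.51 and 6.87 on the saline arrays and 6.46, 6.92, 6.59, 5.36 and 7.05 on the ASO arrays. Psmb6 carries the caspase-like site, and ASO replicate 4 lay more than 1 log2 unit below every other array. Psmb9 read 3.30, 3.86, 3.59, 3.37 and 3.41 on the saline arrays and 3.47, 3.90, 3.64, 3.57 and 3.01 on the ASO arrays. Psmb9, which replaces Psmb6, overlapped fully between groups. The differences were -0.20 ± 0.28 for Psmb6 and 0.01 ± 0.20 for Psmb9, and that of Psmb6 was 0.08 without ASO replicate 4. Psmb7 read 7.04, 7.07, 5.89, 6.31 and 6.72 on the saline arrays and 5.86, 6.51, 6.25, 6.66 and 7.16 on the ASO arrays. For Psmb7, the trypsin-like subunit, the groups spanned nearly one range, with a difference of -0.12 ± 0.29. Its interferon-induced counterpart Psmb10 was represented only by a probe annotated to more than 1 gene and was not analysed here.

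Whether an immunoproteasome gene moved differently from its constitutive partner was tested on the log2 difference of the pair within each array, for 2 pairs. Psmb8 minus Psmb5 was -0.18 ± 0.50 in ASO relative to saline livers (SE, n = 5 per group), with a two-sided exact permutation p of 0.746. Psmb9 minus Psmb6 was 0.21 ± 0.38 in the same comparison (exact permutation p = 0.627), and both had p = 0.746 when adjusted over the 2 pairs. The smallest p that 5 against 5 arrays allow is 0.00794. The value was 0.10 for the first pair without ASO replicate 1 and 0.01 without saline replicate 3, and -0.08 for the second without ASO replicate 4, each the opposite sign. Psmb11, the beta subunit of thymic cortical epithelium, was close to the floor of the scale (-2.38): it read -2.11, -2.11, -2.09, -1.87 and -2.14 on the saline arrays and -2.38, -1.40, -2.38, -2.38 and -1.90 on the ASO arrays. Values at the floor have no order.

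**Figure D4:**
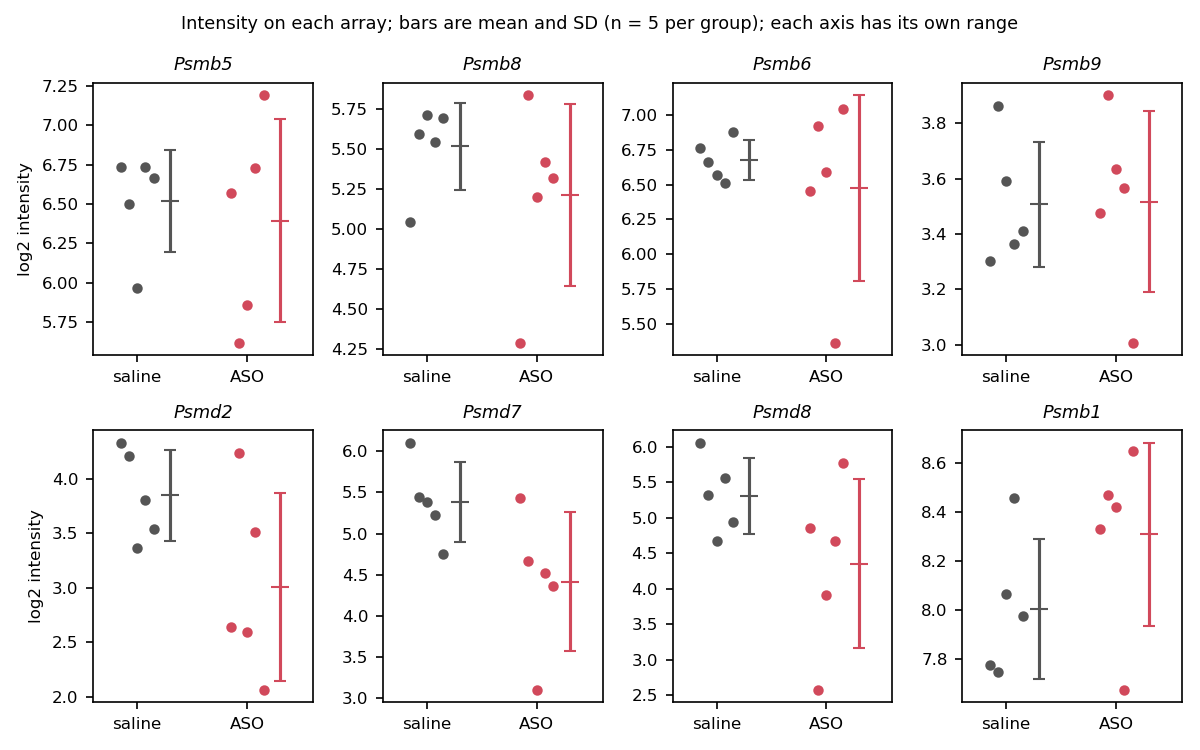
Log2 intensity on each array for Psmb5, Psmb6 and their immunoproteasome counterparts Psmb8 and Psmb9, and for Psmd2, Psmd7, Psmd8 and Psmb1, with saline livers in grey, ASO livers in red, and mean and SD beside the points (n = 5 per group). The groups overlap in all 8 panels, and several ASO groups are spread by 1 array, such as ASO replicate 4 for Psmb6 at 5.36.

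Psmb9 and Psmb8 neighbour Tap1 and Tap2, the peptide transporter genes of MHC class I, on chromosome 17, where the order is Psmb9, Tap1, Psmb8, Tap2. Of 13 measured genes for MHC class I antigen processing and its inducers, 12 had lower and 1 a higher mean in ASO livers, with a median log2 difference of -0.33, and 4 had an unadjusted p under 0.05, all lower, while 0 passed after adjustment in limma. Over all genes, 8.26% were lower at that unadjusted threshold, and 11.3% of genes above the median level. After quantile normalization 9 were lower and 4 higher with a median of -0.30, and after cyclic loess 9 and 4 with a median of -0.33. Tap2 read 2.95, 2.82, 2.41, 2.50 and 2.56 on the saline arrays and 2.01, 1.77, 1.72, 1.21 and 2.46 on the ASO arrays. ASO replicates 1 to 5 of Tap2 were all below the saline mean of 2.65, with 1 of them within the saline range. Tap2 had a difference of -0.81 ± 0.23 (limma unadjusted p = 0.00412, adjusted p = 0.246), the peptide trimmer Erap1 -0.57 ± 0.18 and Tap1 -0.56 ± 0.22. The genes of this cluster had log2 differences of 0.01, -0.56, -0.30 and -0.81 in gene order, and the differences among them were not tested.

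Markers of immune cells, in which immunoproteasomes are abundant, had lower values in ASO livers for some lists. All 6 measured genes of MHC class II presenting cells had lower means in ASO livers, 5 at an unadjusted p under 0.05 and 0 after adjustment in limma, and all 6 were lower after quantile normalization and cyclic loess too. Over all genes, 8.26% were lower and 4.21% higher at that unadjusted threshold. Their summed level was 5.94 to 6.73 (log2) over saline and 4.90 to 5.57 over ASO arrays, ranges that did not overlap. Of 11 lymphocyte genes 9 were lower, 3 of them at that threshold, and Cd3e was near the floor. Their summed levels of 3.84 to 4.24 and 3.35 to 3.83 did not overlap either, by a narrow margin. On saline replicate 4 the lymphocyte sum was taken without Ptprc, which had no value there. Of 10 macrophage and Kupffer cell genes 7 were lower, 1 of them at that threshold, with summed levels of 7.25 to 8.48 and 5.93 to 8.44. Of 8 neutrophil genes 3 were lower and 5 higher, 2 of the higher at that threshold, with Camp near the floor and summed levels of 2.89 to 3.23 and 2.95 to 3.30. Of the other lists, 6 of 8 hepatocyte, 6 of 8 endothelial, 3 of 5 bile duct genes and 2 of 3 red blood cell genes had higher means in ASO livers, and 6 of 8 stellate cell and matrix genes had lower means. The hepatocyte genes Alb, Apoa1, Ttr, Serpina1c and Cyp2e1 all read 8.86 to 8.94 on saline replicate 1, below the other saline arrays and near the brightest value of that array (an intensity of 542), and the part of this in their group means was not tested. The part of these cell types in the Psmb8, Psmb9 and Tap values was not tested.

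The base of the 19S cap held one of the 2 genes at an unadjusted p under 0.05. Of 9 measured base genes 6 had lower and 3 higher means in ASO livers, with a median log2 difference of -0.20 (-0.08 after quantile normalization and -0.12 after cyclic loess). With single arrays left out, the base median ranged from -0.06 (without saline replicate 1 or ASO replicate 2) to -0.40 (without ASO replicate 5). Psmd2 read 4.33, 4.21, 3.36, 3.81 and 3.54 on the saline arrays and 2.64, 4.23, 2.59, 3.51 and 2.06 on the ASO arrays. For Psmd2, a large scaffold subunit of the base that binds ubiquitin-like proteins, 3 ASO arrays were below all saline arrays, and ASO replicate 2 was level with the highest saline arrays. Its means were 3.85 ± 0.42 in saline and 3.01 ± 0.86 in ASO livers, a difference of -0.84 ± 0.38 (limma unadjusted p = 0.0463, adjusted p = 0.437). Leaving out 1 array moved the difference between -0.60 (without ASO replicate 5) and -1.15 (without ASO replicate 2).

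Among the ATPase genes, Psmc2 read 7.19, 6.57, 6.12, 5.55 and 5.82 on the saline arrays and 5.37, 5.23, 5.90, 5.66 and 6.37 on the ASO arrays. Saline replicates 1 and 2 were the highest arrays for Psmc2, and the difference of -0.54 ± 0.32 was -0.31 without saline replicate 1. Psmc3 read 6.09, 5.85, 5.08, 5.97 and 4.69 on the saline arrays and 6.03, 4.23, 4.39, 3.87 and 6.07 on the ASO arrays. In Psmc3 the ASO arrays comprised 2 that matched the highest saline arrays and 3 below all of them, and the difference was -0.62 ± 0.47 (-0.35 without ASO replicate 4). Psmc4 read 6.09, 6.23, 6.02, 5.38 and 6.14 on the saline arrays and 6.03, 6.24, 6.19, 6.83 and 6.36 on the ASO arrays. Psmc4 had a higher mean in ASO livers, at 0.36 ± 0.21, with saline replicate 4 below all other arrays. The difference was 0.21 without that array and 0.23 without ASO replicate 4.

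Psmc5 had the narrowest interval of the base, -0.24 to 0.40 on the log2 scale, around a difference of 0.08. The ATPases Psmc1 and Psmc6 had differences of -0.16 and -0.26. The scaffold subunit Psmd1 had -0.20 ± 0.31, and Psmd4, a receptor for ubiquitin chains, 0.16 ± 0.26. For these 5 genes the intervals lay within 2-fold in both directions.

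The lid had the lowest unadjusted p of all members. Of 8 lid genes 5 had lower and 3 higher means in ASO livers, with a median log2 difference of -0.04 (0.10 after quantile normalization and 0.06 after cyclic loess). Psmd7 read 6.10, 5.45, 5.38, 5.22 and 4.75 on the saline arrays and 5.43, 4.67, 3.10, 4.52 and 4.36 on the ASO arrays. Psmd7 is the catalytically inactive partner of the deubiquitinase Psmd14, and 4 ASO arrays were below all saline arrays while ASO replicate 1 was above 3 of them. Its means were 5.38 ± 0.49 in saline and 4.42 ± 0.84 in ASO livers (SD, n = 5 per group), a difference of -0.97 ± 0.38 (limma unadjusted p = 0.0276, adjusted p = 0.383). The difference was -0.64 without ASO replicate 3 and -1.22 without ASO replicate 1.

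Psmd8 read 6.05, 5.31, 4.67, 5.55 and 4.94 on the saline arrays and 4.85, 2.57, 3.91, 4.67 and 5.76 on the ASO arrays. ASO replicate 2 was lowest by a wide margin for the structural lid subunit Psmd8, and ASO replicate 5 was above 4 of the saline arrays. The difference of -0.95 ± 0.50 was similar in size to that of Psmd7, with a wider spread (limma unadjusted p = 0.0836), and was -0.51 without ASO replicate 2. Psmd6 read 6.76, 6.63, 6.60, 6.66 and 6.55 on the saline arrays and 6.35, 6.59, 6.03, 5.94 and 6.56 on the ASO arrays. Psmd6 was the tightest of the 4 lid genes given here in saline livers (SD 0.08), with 3 ASO arrays below the saline range and a difference of -0.35 ± 0.17 (limma unadjusted p = 0.0686).

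Psmd12 read 6.99, 6.69, 7.41, 7.15 and 6.95 on the saline arrays and 7.11, 6.86, 7.28, 7.64 and 7.18 on the ASO arrays. Psmd12, a lid scaffold subunit, had a difference of 0.17 ± 0.19 with overlapping groups. Psmd14, the deubiquitinase that removes ubiquitin chains before degradation, had -0.02 ± 0.20. Psmd3, Psmd11 and Psmd13 had 0.18, -0.05 and 0.10, and for Psmd3 saline replicate 3 and ASO replicate 1 were each far below the rest of their group (5.01 and 4.57). The Psmd3 difference was 0.53 without that ASO array and -0.01 without that saline array.

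The count of genes at an unadjusted p under 0.05 rested on single arrays. It was 0 without saline replicate 1, saline replicate 2 or ASO replicate 3 in turn, 4 without ASO replicate 4 and 3 without ASO replicate 2. After quantile normalization the count was again 2 but the genes were Psmc4 and Psmd10, both higher in ASO livers. Under the 18 alternatives 0 of 860 results for single members passed the adjusted threshold.

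Activators open the core gate without the 19S cap. All 4 measured genes of the class of activators and regulators, in which Psmf1 is a regulator, had lower means in ASO livers. Their median log2 difference was -0.14, with no unadjusted p under 0.05. The signs were not all stable: Psme3 was at 0.09 after quantile normalization and 0.07 after cyclic loess, and Psmf1 at 0.20 without ASO replicate 3. Psme1 read 6.72, 7.94, 6.09, 6.02 and 5.32 on the saline arrays and 5.33, 5.89, 5.52, 6.18 and 6.04 on the ASO arrays. Saline replicate 2 stood more than 1 log2 unit above every other array for Psme1, which with Psme2 forms the interferon-induced activator ring. The difference of -0.63 ± 0.41 was -0.25 without that array. Psme2 read 4.91, 4.87, 4.83, 5.33 and 5.36 on the saline arrays and 5.19, 4.90, 4.49, 5.01 and 4.69 on the ASO arrays.

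Psme2, which lies near Psme1 on chromosome 14 with Emc9 between them, had a difference of -0.20 ± 0.19 and overlapping groups. Psme3 read 4.36, 4.68, 4.66, 4.68 and 4.74 on the saline arrays and 4.19, 5.02, 4.83, 4.43 and 4.38 on the ASO arrays. Psme3, the nuclear activator, had -0.06 ± 0.19. Psmf1 read -1.25, -1.13, -1.09, -1.46 and -1.14 on the saline arrays and -1.03, -0.93, -2.38, -0.996 and -1.10 on the ASO arrays. Psmf1, a proteasome regulator, was dim, and ASO replicate 3 was at the floor of the scale while the other 9 arrays lay between -1.46 and -0.93. Psme4 and Psme2b had no single-gene probe among those used and were not analysed here.

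Assembly chaperones bring the rings and the base together and leave the finished particle. Of 7 measured genes 5 had higher and 2 lower means in ASO livers, with a median log2 difference of 0.06 (0.20 after quantile normalization, 0.18 after cyclic loess and -0.03 without ASO replicate 5), and 0 had an unadjusted p under 0.05. Psmd10 read 4.06, 3.94, 3.84, 4.02 and 3.85 on the saline arrays and 4.02, 4.07, 4.13, 4.55 and 4.28 on the ASO arrays. In Psmd10, a base chaperone also known as gankyrin, 4 ASO arrays were above all saline arrays and ASO replicate 1 lay within their range. The difference was 0.27 ± 0.16 (limma unadjusted p = 0.111, adjusted p = 0.543). It was 0.40 after quantile normalization and after cyclic loess, and 0.18 without ASO replicate 4. Psmg4 read 3.62, 3.75, 3.80, 3.66 and 3.30 on the saline arrays and 3.81, 3.88, 3.32, 4.02 and 4.21 on the ASO arrays. Psmg4, which pairs with Psmg3 in building the alpha ring, had 0.22 ± 0.19 and its lowest values in 1 array of each group.

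Psmd5 read 3.92, 3.53, 3.96, 3.98 and 3.40 on the saline arrays and 3.58, 3.86, 2.71, 3.76 and 3.93 on the ASO arrays. For the base chaperone Psmd5 ASO replicate 3 was far below the other ASO arrays, and the difference was -0.19 ± 0.25 (0.03 without that array). Psmg2 read 4.07, 3.54, 3.91, 3.84 and 2.71 on the saline arrays and 3.74, 3.96, 3.53, 3.56 and 4.18 on the ASO arrays. Psmg2, partner of Psmg1 in alpha ring assembly, had 0.18 ± 0.26, with the lowest value in saline replicate 5 (-0.05 without that array). Psmg1, Psmg3 and Psmd9 had differences of -0.10, 0.06 and 0.03.

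There were 5 members with more than 1 single-gene probe. For Psmb4 the second probe gave -0.65 ± 0.35 beside -0.36 ± 0.18. The second probes of Psmc4 and Psmd11 were dim, with values down to the floor of -2.38 in the ASO group for Psmc4 and in the saline group for Psmd11. Their differences, set partly by the floor, went against those of the brighter probes. They were -0.56 ± 0.30 for Psmc4 beside 0.36 ± 0.21, and 0.996 ± 0.244 for Psmd11 beside -0.05 ± 0.23. The Psmd11 value had a limma unadjusted p of 0.00163 and an adjusted p of 0.194, both below those of Psmd7. With a gene's probes averaged, the differences were -0.10 for Psmc4 and 0.47 for Psmd11. The Psmc4 probe spanned -1.93 to -0.87 over saline and -2.38 to -1.18 over ASO arrays, and the Psmd11 probe -2.38 to -1.54 and -1.74 to -0.67. Another Psmd11 probe had too few values to be tested. Psmd12 gave 0.11 ± 0.24 beside 0.17 ± 0.19, and Psme1 0.01 ± 0.22 beside -0.63 ± 0.41. Of the genes with a similar symbol only, Psmc3ip, a meiotic recombination factor, was at the floor on 2 arrays of each group and no higher than -0.61, and Psme3ip1, a partner of Psme3, had a difference of -0.01 ± 0.19 from 3 saline arrays with a value.

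Genes that act with the proteasome were described in the same way. Of 8 measured genes for other subunits, cofactors and maturation factors, 5 were higher and 3 lower in ASO livers. With an unadjusted p under 0.05 there was 1 of 8, against 12.5% of all genes in either direction. It was Uchl5, a deubiquitinase of the base, at -0.40 ± 0.18 (limma unadjusted p = 0.0453, adjusted p = 0.434). Usp14, the other deubiquitinase of the base, had -1.01 ± 0.54, with ASO values from 0.58 to 3.08, and the redox protein Txnl1 0.33 ± 0.23. The core maturation factor Pomp had 0.02 ± 0.19.

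Of 6 genes for transcription of proteasome genes, 4 were higher and 2 lower, and 0 had an unadjusted p under 0.05. Nfe2l1 read 0.14, 0.54, -0.16, 0.84 and -0.30 on the saline arrays and -0.11, 0.01, 1.08, -0.64 and 0.76 on the ASO arrays. Nfe2l1 overlapped fully, with a difference of 0.01 ± 0.34. The ATPase Vcp, which extracts ubiquitinated proteins and helps release Nfe2l1 from the endoplasmic reticulum, had 0.18 ± 0.16, and the ubiquitin ligase Syvn1 -0.51 ± 0.32. Nfe2l3 lay between -2.38 and -1.29 on 9 arrays and read 7.74 on ASO replicate 4, so its mean difference rests on 1 array. Of 7 genes for ubiquitin and its shuttles, 3 were higher and 4 lower, and after quantile normalization or cyclic loess 4 were higher and 3 lower. The ubiquitin-activating enzyme Uba6 had the 1 unadjusted p under 0.05, at 0.61 ± 0.27 (limma unadjusted p = 0.0479, adjusted p = 0.44). That is 1 of 7, against 12.5% of all genes at that threshold. Nploc4 had -0.44 ± 0.30 and Rad23b -0.19 ± 0.22.

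The spread of the proteasome genes was wider over ASO than over saline livers. The SD of a gene over the 5 arrays was larger in the ASO group for 36 of the 46 genes (78.3%), against 61.6% of all genes and 62.5% of genes above the median level. Its median was 0.416 over ASO and 0.283 over saline arrays, against 0.412 and 0.345 over all genes and 0.397 and 0.329 over genes above the median level. The genes share the same 5 and 5 arrays and are not independent, and the difference in spread was not tested. The class medians by array were also uneven. As the median deviation of the 31 constitutive core and cap genes from their own means, saline replicates 1 to 5 stood at 0.29, 0.17, -0.05, 0.19 and -0.04, and ASO replicates 1 to 5 at -0.18, -0.03, -0.06, -0.15 and 0.37. ASO replicate 5 was thus the highest of the 10 arrays while ASO replicates 1, 3 and 4 were below all saline arrays and ASO replicate 2 was below 3 of them. By the same measure, genes above the median level stood at 0.18, 0.09, 0.05, 0.04 and 0.04 on saline replicates 1 to 5. On ASO replicates 1 to 5 they stood at -0.02, -0.04, -0.06, -0.03 and -0.01, all below the saline arrays. Without ASO replicate 5 the median log2 difference of these 31 genes was -0.28, against -0.13 with it, and it was -0.05 without ASO replicate 1.

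Correlations between subunits over the arrays were weak. After subtraction of each group's mean, the Pearson correlation over the 10 arrays had a median of 0.07 over the 465 pairs of the 31 constitutive genes, and 57.6% of pairs were above 0. Over all pairs of genes the median was 0.00 and 50.2% were above 0. The median was 0.11 within the alpha ring, 0.03 within the beta ring, 0.06 within the base and 0.02 within the lid. All pairs share the same arrays and are not independent.

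The arrays as a whole set the frame for these values. Array medians lay between 1.03 and 1.05 in intensity, and the brightest value was 542 on saline replicate 1 against 1198 to 2333 on the other arrays. Of the 36088 probes tested, 23 passed the adjusted threshold (0.0637%), and the number of arrays limits the precision.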

How the data were processed

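Liver RNA of 10 mice was hybridised to single-channel CodeLink arrays. The deposited series table holds 1 intensity per probe and array on a linear scale, with array medians near 1, and how the authors corrected background and scaled the arrays is not stated in what was used here. Values were floored at the 10th percentile of positive values (0.192) and taken to log2, with no further scaling. Probes with at least 3 values per group were tested (36088 of 36227) with limma 3.58.1 in R 4.3.3 (lmFit and eBayes, ASO against saline, two-sided). P-values were adjusted by Benjamini-Hochberg across the probes tested, with a threshold of 0.05. An unadjusted p under 0.05 is named as such. Genes came from the platform annotation, using probes with 1 gene (21615; 681 had several). Pairs of subunits were tested with exact permutation tests (scipy 1.17.1). The pair of Psmb10 and Psmb7 was not run.

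The members and the gene lists were chosen with earlier results of these data known. In each class, up to 4 genes with the smallest unadjusted p were given with every array's value, the immunoproteasome subunits and their partners always, and up to 3 genes from each related list. On simulated data for this comparison (36088 probes, changed probes above the median level), 1.49% of 1.5-fold, 31.3% of 2-fold and 75.8% of 4-fold changes were recovered at the adjusted threshold. The simulated noise was normal and independent for each probe and array. Shifts shared by the probes of an array and outlying arrays were not simulated, so the shares need not hold for the real arrays. The labels give 5 separate samples per group and no batch, and p-values measure only the spread between these samples. Alternatives were quantile and cyclic loess normalization, no floor, a pseudocount of 1, only probes above the median level, a trended robust eBayes, array weights, averaging a gene's probes, and leaving out each array.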

Additional observations from a re-analysis of the deposited data

Results flagged for a closer look

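In 14 of 119 groups of 5 arrays, 1 array lay far from the other 4 of its group by Dixon's gap criterion, which chance meets in about 1 of 20 groups. Values are log2 intensities. Psma1 read 7.06 on saline replicate 1, with the others at 7.63 to 7.73. On saline replicate 5, Psma3 stood at 7.14, while the remaining arrays spanned 8.01 to 8.31. Psma7 read 6.35 on ASO replicate 5, with the others at 4.84 to 5.22. On saline replicate 4, Psmb4 stood at 7.95, while the remaining arrays spanned 7.36 to 7.43. Psmb11 read -1.87 on saline replicate 4, with the others at -2.14 to -2.09. On saline replicate 1, Psmb8 stood at 5.04, while the remaining arrays spanned 5.54 to 5.71. Psmc4 read 5.38 on saline replicate 4, with the others at 6.02 to 6.23. On saline replicate 3, Psmd3 stood at 5.01, while the remaining arrays spanned 5.81 to 6.05. Psmd3 read 4.57 on ASO replicate 1, with the others at 6.02 to 6.57. On saline replicate 1, Psme3 stood at 4.36, while the remaining arrays spanned 4.66 to 4.74. Psmf1 read -2.38 on ASO replicate 3, with the others at -1.09 to -0.93. On ASO replicate 3, Psmd5 stood at 2.71, while the remaining arrays spanned 3.58 to 3.93. Syvn1 read 0.95 on ASO replicate 3, with the others at 2.17 to 2.63. On ASO replicate 4, Nfe2l3 stood at 7.74, while the remaining arrays spanned -2.38 to -1.29. Saline replicates 1 and 4 account for 6 of the 14 values, 3 each, and ASO replicate 3 for 3.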

How the results depend on the processing

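Under 18 alternatives, 0 of 860 results for single members passed the adjusted threshold in limma (lowest adjusted p = 0.232), and the log2 difference changed sign in 82 of them. The 860 include results for Psmc3ip and Psme3ip1. Some of the 860 could not change sign. A trended robust eBayes and the limit to probes above the median level leave each difference as it was. Averaging does the same for a gene with 1 probe. The number of probes past the adjusted threshold, 23, was 39 after cyclic loess, 7 with no floor, 73 with only probes above the median level, 42 with a trended robust eBayes, and 0 to 16 when each array was left out. The number of members at an unadjusted p under 0.05, 2, was 1 with no floor, 5 with a pseudocount, 4 after averaging a gene's probes, and 0 to 4 when each array was left out. The lid median of -0.04 was 0.10 after quantile normalization, 0.060 after cyclic loess, and -0.15 to 0.055 when each array was left out. The immunoproteasome and thymoproteasome median of -0.02 was -0.30 with no floor. In that setting Psmb11 moved from -0.02 to -0.66, while Psmb8 (-0.30) and Psmb9 (0.01) kept their values. The cause of the other shifts was not tested. Dim probes such as those of Psmb11 and Psmf1 are limited by signal over background. No paired analysis was possible because the labels give the groups no shared replicate numbers.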
